A study of Mus musculus with 12 samples.

Results

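The histone cluster genes encode the core and linker histones that package newly made DNA. They were taken here as every protein-coding gene whose symbol begins with Hist1, Hist2, Hist3 or Hist4 in either of the study's 2 tables of comparison results. The rule found 68 symbols among 45801 gene IDs: 6 for the linker histone H1, 19 for H2A, 18 for H2B, 12 for H3 and 13 for H4. All 68 are listed in the blastocyst table and 57 in the embryonic stem (ES) cell table. The study compared mouse embryos and cells with and without Dis3l, the gene of a 3′-to-5′ ribonuclease that works with the exosome in the cytoplasm. Its labels name 12 samples in 4 groups of 3: Dis3L WT blastocysts, Dis3L KO blastocysts, Dis3L WT ES cells and Dis3L KO ES cells. Blastocysts were collected 96 h after the hCG injection that followed PMSG, and each library came from a single embryo, as the labels' protocols state. Outgrowths of blastocysts gave the ES cell lines, which were kept with LIF on inactivated mouse embryonic fibroblasts. The labels give no allele, strain or number of independent lines, so whether the ES cell samples are separate lines or repeats of a line is not known, and the spread between them may be technical.

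Most cluster histone mRNAs are made during S phase, when new chromatin is assembled. They carry no introns and no poly(A) tail. Instead they end in a short RNA stem-loop, which the protein SLBP binds and behind which the U7 snRNP and the cleavage factor CPSF3 cut the transcript. When DNA synthesis stops, a uridine tail is added behind the stem-loop and the mRNA is degraded from both ends. Replication-independent histones such as H2afz and H3f3a are encoded elsewhere and have ordinary polyadenylated mRNAs. Some cluster genes can also be read through to a downstream poly(A) site. The ES cell libraries were stranded and made from RNA depleted of ribosomal RNA, a procedure that does not select for a poly(A) tail. The blastocyst libraries were made by tagmentation of cDNA with Tn5 transposase; how that cDNA was primed is not given in the sources used here.

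The stem-loop is the feature that sets these mRNAs apart in a library, so its sequence was read from the GENCODE M21 transcripts (GRCm38). A stem-loop was called where a 6-base arm GGNNCT, a 4-base loop and the reverse complement of the arm lie within 100 bases after the stop codon. Of the 67 members with a coding model, 46 held it, beginning 22 to 59 bases after the stop codon. Of the 50 members whose model runs at least 50 bases past the stop codon, 46 had it; the 4 others were Hist1h2bc, Hist1h2bq, Hist1h2br and Hist2h2be. Each of the other 17 models stops earlier, so whether those genes have a stem-loop could not be read from them. The following examples show all 8 distinct forms, the commonest from 3 histone types, with the stem-loop in capitals and the flanking bases in lower case.
Hist1h1c (H1, chr13:23739507-23739532, plus strand): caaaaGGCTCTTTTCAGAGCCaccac
Hist1h2ae (H2A, chr13:23570663-23570688, minus strand): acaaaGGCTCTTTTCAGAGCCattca
Hist1h2bg (H2B, chr13:23571838-23571863, plus strand): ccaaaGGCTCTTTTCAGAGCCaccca
Hist1h3e (H3, chr13:23561898-23561923, minus strand): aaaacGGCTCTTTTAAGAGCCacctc
Hist1h4d (H4, chr13:23581945-23581970, plus strand): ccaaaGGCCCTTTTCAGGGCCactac
Hist1h4b (H4, chr13:23757361-23757386, plus strand): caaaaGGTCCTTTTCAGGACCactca
Hist2h4 (H4, chr3:96262934-96262959, minus strand): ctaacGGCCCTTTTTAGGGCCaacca
Hist2h2ac (H2A, chr3:96220413-96220438, minus strand): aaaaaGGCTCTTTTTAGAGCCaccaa
Hist1h3g (H3, chr13:23535884-23535909, plus strand): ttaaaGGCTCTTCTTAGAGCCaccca
Hist1h4a (H4, chr13:23760795-23760820, minus strand): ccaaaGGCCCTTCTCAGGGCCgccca
The form shown for Hist1h1c was shared by 26 members, 3 of H1, 10 of H2A, 8 of H2B and 5 of H3, and by no H4 gene. H4 genes had other arms: 7 carried the form of Hist1h4d, and 2 each those of Hist1h4b and Hist2h4. The form of Hist1h3e was found in 6 members, 3 of them H3 genes. The forms of Hist2h2ac, Hist1h3g and Hist1h4a were each found in that gene alone.

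Upstream of the genes, H2A and H2B members shared a motif that the other types lacked. RefSeq promoter sequences of the 250 bases before the gene start (GRCm38.p6) matched 61 of the 68 members. The octamer ATTTGCAT, searched on both strands, was in 7 of 17 H2A and 7 of 16 H2B promoters, in none of the H1, H3 or H4 promoters, and in 526 of 32851 promoters of all genes. TATAAA was in 47.5% of the members' promoters against 12.4% of all, and CCAAT in 82.0% against 33.8%, both strands counted. CCAAT was in each of the 6 H1, 17 H2A and 16 H2B promoters but in 3 of 12 H4 promoters. Some octamers lie between an H2A and an H2B gene read in opposite directions. Hist1h2ae and Hist1h2bg share such an octamer, given here in capitals from each gene's own strand, with the TATAAA of Hist1h2bg also in capitals. A match of letters is a description and does not show that a factor binds there.
Hist1h2ae (chr13:23571309-23571368, minus strand): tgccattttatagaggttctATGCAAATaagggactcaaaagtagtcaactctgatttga
Hist1h2bg (chr13:23571321-23571380, plus strand): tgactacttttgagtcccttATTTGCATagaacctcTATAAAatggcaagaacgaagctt

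Neither table holds a value per sample, and neither states which genotype a positive log2 fold change favours. The reads of each count column were therefore recovered from the authors' means, and a column was assigned to the positive side where it raises the fold change and to the negative side where it lowers it. This gave 3 columns per side in blastocysts and 2 per side in ES cells, fewer than the 6 ES cell samples of the labels, and no column could be tied to a sample. In ES cells Dis3l itself had 11.2 and 10.5 normalised reads in the positive columns against 37.1 and 37.7 in the negative ones. In the authors' deposited table its log2 fold change in ES cells was -0.88 (SE 0.33, unadjusted p = 0.00778, DESeq2 adjusted p = 0.445). In blastocysts Dis3l had 18.6, 8.12 and 0 normalised reads in the positive columns against 6.18, 4.46 and 11.5 in the negative ones, so the sides overlapped, and the authors' deposited table has 0.28 (SE 1.91). Trophectoderm markers summed to a mean of 18832 and pluripotency markers to 1602 in the blastocyst table, where 6 of 7 fibroblast markers were at 0. In ES cells all 7 pluripotency markers were above 10, and all 7 fibroblast markers were also present.

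Cluster histone reads were scarce in the blastocyst table and abundant in the ES cell table. In the authors' deposited tables the members' means summed to 418 normalised reads in blastocysts and to 6470 in ES cells. That was 0.0113% of the summed mean of the 12889 protein-coding genes listed in both tables for blastocysts, and 0.419% for ES cells. In blastocysts 49 of 68 members had a mean above 0 and 9 reached 10. In ES cells all 57 listed members were above 0 and 53 reached 10. The lowest mean in the ES cell table is 2.08, so no gene listed there could be at 0. The blastocyst table also lists genes at 0, so the counts above 0 do not compare the materials. Of the members, 55 are among the 12889 genes listed in both tables. Per kilobase, their median stood at the 28.3 percentile of these genes in blastocysts and at the 96.8 percentile in ES cells. The ranks thus leave out every gene missing from the ES cell table. Material, library protocol and annotation changed together between the tables, so their parts cannot be told apart.

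Replication-independent histone genes gave a yardstick within each table. The 17 genes of that list summed to 5158 normalised reads in the authors' deposited table for blastocysts, with H2afy at 1792, H3f3b at 1327 and H2afz at 651.9. In ES cells the 11 listed genes summed to 1740. The list is not purely polyadenylated: it includes H2afx, whose mRNA can also end in a stem-loop, at 417.3 in blastocysts and 264.3 in ES cells. For blastocysts it also includes H3f3c and H2afy3, listed as processed pseudogenes, at 3.762 and 0. Per kilobase, the cluster genes' summed mean was 0.370 times that of the replication-independent list in blastocysts and 11.8 times in ES cells. By type, the ratio went from 1.16 to 25.1 for H1, from 0.182 to 2.23 for H2A and from 0.0786 to 10.5 for H3. The order of the types therefore differed, with H1 highest in both tables.

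**Figure D1:**
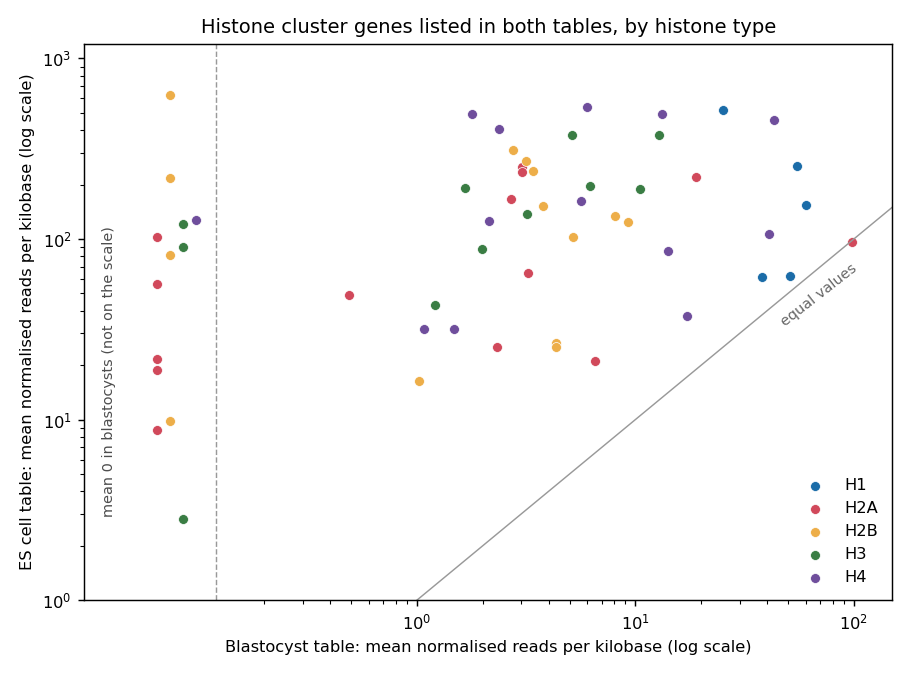
Mean normalised reads per kilobase of the 57 histone cluster genes listed in both tables, blastocysts on the horizontal and ES cells on the vertical log axis, 1 point per gene, coloured by histone type. Members at 0 in blastocysts are drawn left of the dashed line, and the points lie above the line of equal values except Hist1h2ae, which lies just under it. The tables were normalised separately, with summed means of 4608914 for blastocysts and 1513923 for ES cells, so the line does not mark equal expression.

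The tables also draw the genes differently. Of the 57 members in both, 21 have another span, and 19 of these are longer in the ES cell table, where every member has its GENCODE M21 span. Hist1h1d is 744 bases long in the blastocyst table and 7425 in the ES cell table. Hist1h4d is 393 and 1138 bases, and Hist1h2ac 476 and 2482. For 22 members the ES cell model runs over 100 bases past the stem-loop, against 14 in the blastocyst table. Reads from long transcript ends could therefore be counted for more members in ES cells, but where the reads lie is not known. Of those 14 in the blastocyst table, 9 were above 0, with Hist1h1c highest at 85.2, against 25 of the 29 whose model ends within 100 bases of the stem-loop.

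In ES cells levels per kilobase varied within every type. Among the 12889 protein-coding genes listed in both tables, the lowest H1 member stood at the 91.5 percentile and the lowest H4 member at the 80.7 percentile. The lowest members of the other types were at 45.7 for H2A, 49.0 for H2B and 20.9 for H3. The median member had 154 normalised reads per kilobase for H1, 60.5 for H2A, 129 for H2B, 137 for H3 and 128 for H4. Within types, the highest member exceeded the lowest 8.34 times for H1, 17.0 times for H4, 28.7 times for H2A, 63.2 times for H2B and 133 times for H3, where the lowest, Hist2h3c1, had a mean of 5.15 normalised reads. On the gene models of the ES cell table, the highest level was that of Hist2h2bb, an H2B gene, with 623 normalised reads per kilobase. Hist1h4k and Hist1h4f followed among H4 genes with 538 and 493, and Hist1h1a among H1 genes with 515 against 253 for Hist1h1c. The highest H3 levels were 376.3 for Hist1h3e and 375.9 for Hist1h3c, which did not differ beyond the spread of their columns. The highest H2A levels were 250 for Hist1h2ab and 234 for Hist1h2ai, and the second H2B gene was Hist1h2bb with 312. In read counts the largest mean was 521 for Hist1h4d. The order depends on the models. Divided by the shorter model of the 2 tables, Hist1h4d went from 458 to 1325 normalised reads per kilobase, from sixth place to first. Hist1h1d went from 62.4 to 623 and above Hist1h1a at 594. Hist1h1e, the lowest H1 member on the ES cell models, went from 61.7 to 159, so the H1 range also depends on the models.

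In blastocysts H1 genes supplied 212 of the 418 normalised reads from 6 members. Hist1h1c had the largest mean, 85.2, and its reads per column could not be recovered because 2 solutions gave the same mean. Hist1h1b had 47.1, 8.12 and 0 normalised reads for the positive side and 40.8, 51.3 and 121 for the negative. The H2A gene Hist1h2ae, the highest member per kilobase at 98.3, had 118, 12.2 and 0 in the positive columns against 84.1, 13.4 and 43.2. The H4 gene Hist1h4d was the only one of the 67 members with recovered reads to have reads in all 6 columns, at 6.42, 5.07 and 18.3 and at 14.2, 29.0 and 28.8. Hist1h4n followed among H4 genes with a mean of 17.6. H2B and H3 genes stayed under a mean of 10; the highest per kilobase were Hist1h2bj and Hist1h2bk at 9.28 and 8.06, and Hist1h3c and Hist1h3h at 12.8 and 10.5.

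Most members were seen in few embryos. Of the 67 members with recovered reads, 19 had none, 20 had reads in 1 column only and 11 in 2. Column 3 of the positive side held reads of 7 members and column 1 of that side of 26; over all 11415 genes with recovered reads, the same columns held the fewest genes with reads, 5373, and the most, 7401. Of the non-zero counts recovered in the blastocyst table, 95.1% to 96.9% per column were even, against 48.7% to 50.1% in ES cells, so blastocyst counts moved mostly in steps of 2. With such steps, a count of 0 allows up to 6 reads in a column, that is 3 steps, which is worth a mean of 0.618 to 1.44 depending on the column.

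Among the 19 members at 0 in blastocysts, 9 had a mean of at least 10 in ES cells. They were the H2A genes Hist1h2ah, Hist1h2an and Hist3h2a, the H2B genes Hist1h2bf, Hist1h2bm and Hist2h2bb, the H3 genes Hist1h3g and Hist2h3b, and the H4 gene Hist1h4j. Their ES cell means ran from 22.8 for Hist1h2ah to 237 for Hist2h2bb. In the blastocyst table the models of Hist1h2bm and Hist1h3g end before the end of their stem-loops. Hist2h2bb lies wholly inside a long non-coding gene of the same name there. Hist2h3b overlaps an antisense gene, Hist3h2a overlaps Trim17 and a miRNA gene, and Hist1h2ah and Hist1h2an each overlap a miRNA gene. Of all members, 24 overlap another gene in the blastocyst table and 3 in the ES cell table, which lists protein-coding genes only. Hist1h2ae also overlaps a miRNA gene in the blastocyst table and had a mean of 45.2 there. Whether reads were lost to such overlaps was not tested. No member with a mean of at least 10 in blastocysts was missing from the ES cell table.

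Of the 11 members not listed in the ES cell table, 7 have a coding sequence whose every 50-base window also occurs in another histone gene. These are Hist1h2ao, Hist1h2ap, Hist1h2bq, Hist1h2br, Hist2h2aa1, Hist2h2aa2 and Hist2h3c2. A read within such a coding sequence cannot be assigned to a single gene by its letters, and 5 listed members share that property. Outside the coding sequence most of these genes differ: over the whole transcript the shared part was 63.5% for Hist2h3c2 and 88.5% for Hist1h2br, and 100% for Hist2h2aa2. Hist2h2be shares none and was at 0 in blastocysts as well. The variants known from testis were also at or near 0: Hist1h1t and Hist1h2ba had no reads in blastocysts and are not listed for ES cells, and Hist1h2aa had 0 in blastocysts and a mean of 3.40 in ES cells. The lowest mean in the ES cell table is 2.08, so a gene not listed there may have been under that. Across the 44 members seen in both tables, Spearman's rho of the means per kilobase was 0.21, a description over genes that share sequence and a library.

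The comparison between genotypes in ES cells asks whether cluster histone mRNAs change without Dis3l. Of the 54 members tested in the authors' deposited table, 52 had a positive log2 fold change and 0 passed a DESeq2 adjusted p-value of 0.05. The background was 0.261% of 10739 tested genes called and 50.0% with a positive value. The members' median log2 fold change was 0.45, against -0.00 over all tested genes, and the highest were Hist1h2ak at 0.96 (SE 0.29) and Hist1h2ae at 0.93 (SE 0.30). At an unadjusted p-value under 0.05, 15 members (27.8%) were positive, against 2.21% of tested genes, and 0 members were negative against 3.42%. By type, the median was 0.59 for H1, 0.47 for H2A, 0.39 for H2B, 0.54 for H3 and 0.34 for H4. No standard error in this table exceeded 0.33, against up to 4.08 in blastocysts, and the deposited fold changes were smaller than the ratios of the recovered reads. Hist1h2aa, with 1 and 9 reads against 1 and 0, had 0.31 (SE 0.21) in the authors' deposited table and a log2 ratio of 3.73. In blastocysts Hist1h1a had -2.62 and a ratio of -2.59. Fold changes and standard errors of the 2 tables therefore do not compare effect sizes or precision between the materials.

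The 15 members with an unadjusted p-value under 0.05 came from every type. Among H1 genes, Hist1h1d had 559 and 640 normalised reads (positive side) against 442 and 213 (negative side), and a log2 fold change of 0.70 (SE 0.26, p = 0.00735, DESeq2 adjusted p = 0.437) in the authors' deposited table. Hist1h1a had 381 and 579 against 394 and 172, so its sides overlapped, and Hist1h1b had 151 and 155 against 110 and 42.5. Of the H2A genes, Hist1h2ak had 129 and 116 against 51.3 and 49.3, the lowest adjusted p-value of any member (DESeq2 adjusted p = 0.133). Hist1h2ae had 91.0 and 103 against 44.7 and 32.9. In both of these H2A genes the columns of the negative side lay under both of the positive side.

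Among H2B genes, Hist1h2bn had 133 and 151 normalised reads in the positive columns against 95.1 and 32.9 in the negative, Hist1h2bg 192 and 190 against 135 and 73.4, and Hist1h2be 91.0 and 100 against 64.7 and 33.8. For Hist1h2be the ES cell model overlaps that of Hist1h1e. The H3 genes were Hist1h3i with 86.2 and 141 against 63.7 and 31.9, Hist1h3h with 110 and 96.1 against 76.1 and 27.1, and Hist1h3b with 68.7 and 77.7 against 51.3 and 21.3. The H4 genes were Hist1h4d with 628 and 640 against 534 and 281, Hist1h4j with 120 and 133 against 83.7 and 58.9, Hist1h4n with 53.5 and 73.7 against 43.7 and 12.6, and Hist2h4 with 85.4 and 57.9 against 41.8 and 21.3. In 14 of the 15 both positive-side columns exceeded both negative-side columns, and in all 15 column 2 of the negative side was the lowest. The 15 were chosen by p-values that rest on these same columns, so neither count is separate support for a shift. The authors' deposited table gave negative values only to Hist1h2bf (-0.22, SE 0.33) and Hist1h2bc (-0.09, SE 0.28) among the tested members. Hist1h2bc was the member listed in ES cells whose model runs on after the stop codon without a stem-loop.

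**Figure D2:**
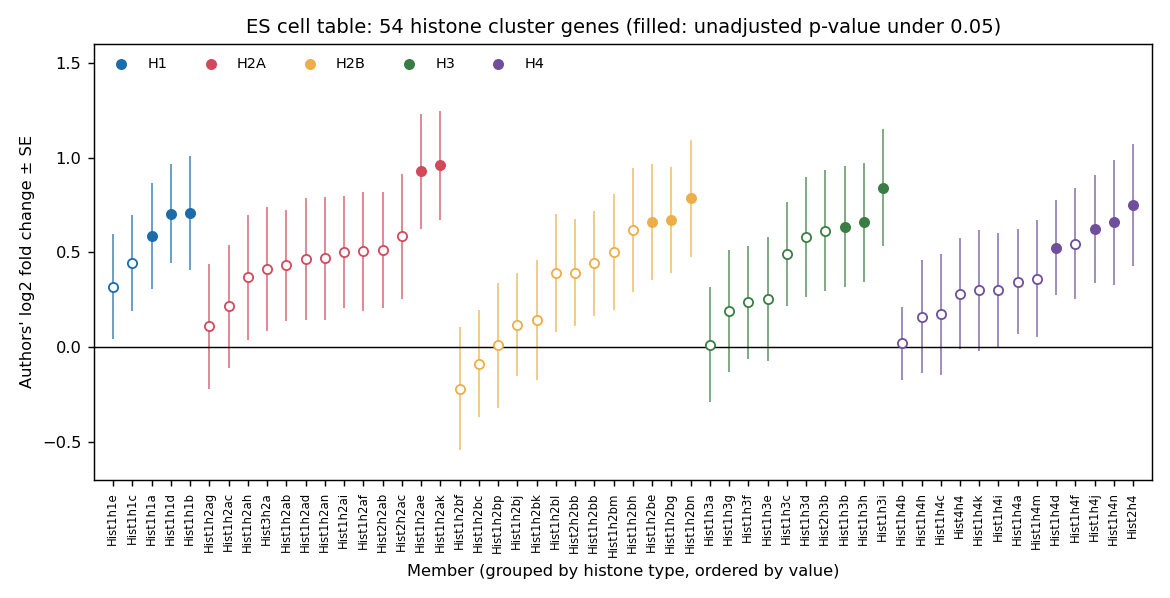
The authors' log2 fold change with its standard error for the 54 tested histone cluster genes in ES cells, grouped by histone type and ordered by value within a type. Filled points have an unadjusted p-value under 0.05; 52 of the 54 values lie above 0.

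The size of this shift depended on which column of the negative side was kept. Summed over the 57 members, normalised reads came to 7459 and 8433 for the positive side and to 6878 and 3108 for the negative side, that is 7946 ± 689 (SD, n = 2) and 4993 ± 2665 (SD, n = 2). Column 2 of the negative side held the fewest, although all recovered genes summed to 1149616 in it against 1094172 to 1120239 in the others. The log2 ratio of the summed reads was 0.67 with all columns, 0.21 without column 2 of the negative side and 1.35 without column 1 of that side. Over the 50 members with a mean of at least 20, the median log2 ratio was 0.74 with 48 positive, and 0.27 with 39 positive once column 2 of the negative side was left out. Both positive-side columns exceeded both negative-side columns in 34 of 54 members (63.0%), against 20.0% of tested genes whose reads were recovered.

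Set against the mean of the other 3 columns, column 2 of the negative side had a median log2 value of -1.26 over those 50 members and 0.00 over 8669 genes. It was the lowest of the 4 columns for 47 members (94.0%) and for 28.9% of all genes. Column 2 of the positive side was the highest for 33 members, with a median of 0.60, while column 1 of the negative side had a median of -0.01. The deficit was uneven among members. It ranged from -0.21 to -5.50, and by type its median was -1.36 for H1, -0.98 for H2A, -1.24 for H2B, -1.43 for H3 and -1.55 for H4. The largest deficit, in a gene named after its values were seen, was that of the H4 gene Hist1h4b, with 52.7, 54 and 91.3 normalised reads in the other columns and 0.966 in column 2 of the negative side. The 15 members with an unadjusted p-value under 0.05 were chosen on these columns; without column 2 of the negative side their log2 ratios began at 0.25, with a median of 0.54.

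**Figure D3:**
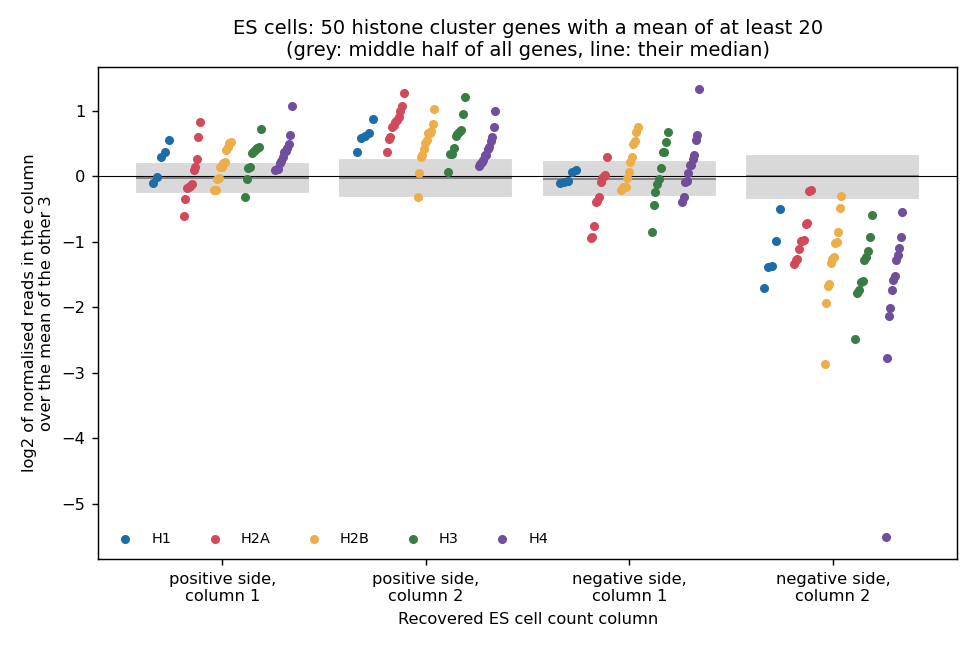
Log2 of the normalised reads in each of the 4 recovered ES cell columns over the mean of the other 3, 1 point for each of the 50 histone cluster genes with a mean of at least 20, coloured by type. The grey box spans the middle 50% of all genes; in column 2 of the negative side all 50 members lie below 0, with a median of -1.26.

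Lists of related genes had medians closer to 0 in that column than the cluster genes. The difference between lists was not tested. S phase genes, which mark cells replicating DNA, had a median of -0.09 in column 2 of the negative side over 20 genes, and it was the lowest column for 7 of them. The 30 histone mRNA factors, among them Slbp, Npat and Lsm11, had a median of -0.15. Replication-independent histones had -0.43 over 9 genes, and 0.35 in column 1 of the negative side. In the authors' deposited table for ES cells, 0 of 25 S phase genes, 0 of 31 histone mRNA factors and 0 of 10 tested replication-independent histones passed a DESeq2 adjusted p-value of 0.05, and 0 in each list passed an unadjusted 0.05. Slbp had a log2 fold change of 0.10 (SE 0.27) and Pcna 0.16 (SE 0.23). The lists' median log2 fold changes were -0.00 for S phase genes and 0.07 for each of the other lists.

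Fibroblast markers were highest in the same column. The 7 marker genes summed to 1536 normalised reads in column 2 of the negative side, against 252 in column 1 of that side and 237 and 208 on the positive side. Col1a1, a collagen chain, had 80 reads there and 18, 12 and 29 in the other columns, and Postn had 131 against 3, 0 and 1. Lum had 52 against 13, 5 and 12, while Thy1 had 15 against 38, 19 and 30. In the authors' deposited table Col1a1 had a log2 fold change of -0.92 and Lum of -0.70, with unadjusted p-values of 0.00560 and 0.0322. The trophectoderm marker Tfap2c had 31 and 29 reads on the positive and 8 and 7 on the negative side, and the authors' deposited table gives it 0.91 (SE 0.33, unadjusted p = 0.00584, DESeq2 adjusted p = 0.387). Of the 6 markers with a mean of at least 20, 5 were highest there. The 4 pluripotency markers with recovered reads summed to 1676 in column 2 of the negative side and to 1524, 1183 and 1946 in the others. Each of the 4 was lowest in column 2 of the positive side, where most histone members were highest. None of the 7 pluripotency markers had a positive log2 fold change in the authors' deposited table, and 0 passed an adjusted or an unadjusted p-value of 0.05. The ES cells were grown on inactivated fibroblasts, which do not divide; in a bulk sample, fewer cells of a type and less RNA per cell cannot be told apart, and the part of these cells in the histone values was not tested.

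**Figure D4:**
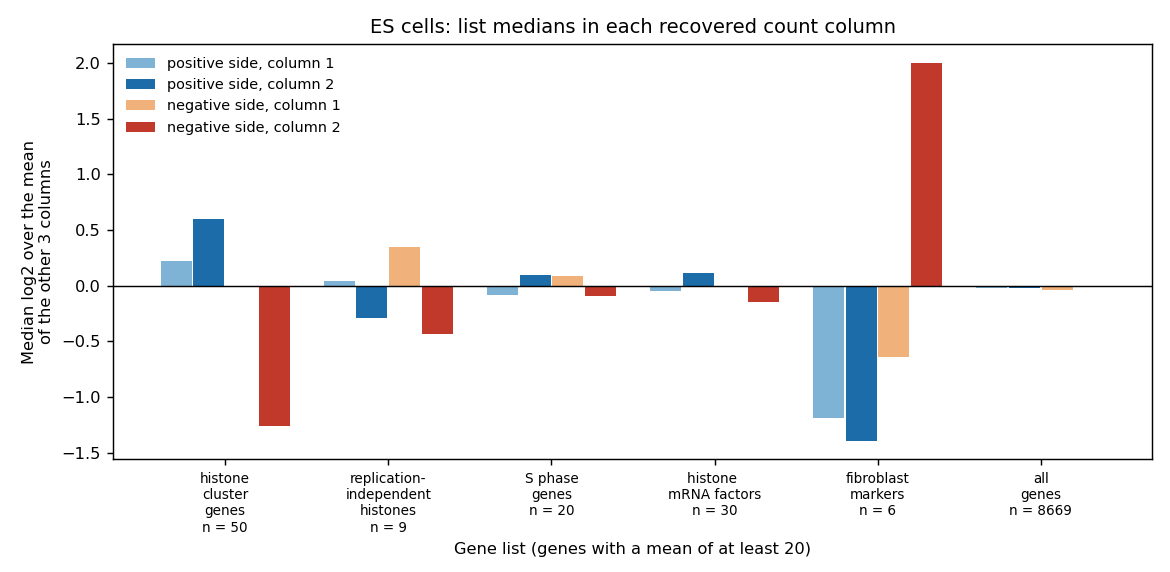
Median log2 of each recovered ES cell column over the mean of the other 3, for 5 gene lists and all genes with a mean of at least 20; bars are columns. In column 2 of the negative side the histone cluster genes stand at -1.26 and the fibroblast markers at 2.00. Replication-independent histones stand at -0.43 and S phase genes at -0.09.

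In blastocysts the same comparison rested on few histone reads. The authors' deposited table gives 33 members an adjusted p-value, and 0 were under 0.05, against 0.0986% of 15209 tested genes. Of the 33, 23 had a negative log2 fold change, and the median was -1.71, with a median standard error of 2.91. Of the 32 tested members with recovered reads, 10 had no reads on 1 side, and a fitted value there is no measure of size; for the members with reads on both sides the median log2 ratio of recovered reads was -1.06. Over all tested genes the median was -0.04 and 48.3% were positive, against 30.3% of the members. By type, the median was -1.93 for H1, -1.08 for H2A, -4.22 for H2B, 0.37 for H3 and -2.00 for H4. The H2B value rests on 7 genes of which 5 had a side at 0, and the log2 ratio of summed H2B reads was -0.86.

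At an unadjusted p-value under 0.05, 2 members (6.06%) were negative, against 3.53% of tested genes, and 0 were positive against 2.68%. The H2A gene Hist1h2al (chr13:51202688-51203065) had 0 reads in the 3 columns of the positive side and 0, 26 and 12 in those of the negative side. Its log2 fold change in the authors' deposited table was -6.48 (SE 2.73, p = 0.0177, DESeq2 adjusted p = 0.667). It lies far from the main cluster and is a processed pseudogene in GENCODE M21. The H2B gene Hist1h2be, whose model there spans 37383 bases, had 0 reads in every positive column against 20, 12 and 1, with -5.72 (SE 2.91, p = 0.0495, DESeq2 adjusted p = 0.799) in the authors' deposited table.

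Members with more reads showed the same sign with wide errors. Hist1h1d had 19.3, 20.3 and 0 normalised reads in the positive columns against 30.3, 45.7 and 112, and the authors' deposited table gives -2.24 (SE 1.15, unadjusted p = 0.0512). Hist1h1c, the member with the largest mean, had -0.10 (SE 0.75) there. All 3 positive-side columns lay under all 3 negative-side columns in 5 of 32 members (15.6%), against 4.61% of tested genes whose reads were recovered. These were Hist1h1d, Hist1h2be, Hist1h4i, Hist1h4k and Hist1h4n.

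Summed over the 67 members with recovered reads, the positive-side columns held 415, 118 and 98.3 normalised reads and the negative-side columns 459, 327 and 578, that is 210 ± 178 (SD, n = 3) against 455 ± 126 (SD, n = 3). Column 1 of the positive side lay within the range of the negative side, so the sides overlapped. The log2 ratio of the sums was -1.11. Without column 1 of the positive side it was -2.07, and without any other single column between -1.30 and -0.77. By type it was -1.87 for H1, -0.20 for H2A, -0.86 for H2B, -0.55 for H3 and -1.38 for H4. The H2A ratio turned positive without column 2 or 3 of the positive side (0.23 and 0.28) or column 1 of the negative side (0.09), and the H3 ratio without column 3 of the positive side (0.03).

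**Figure D5:**
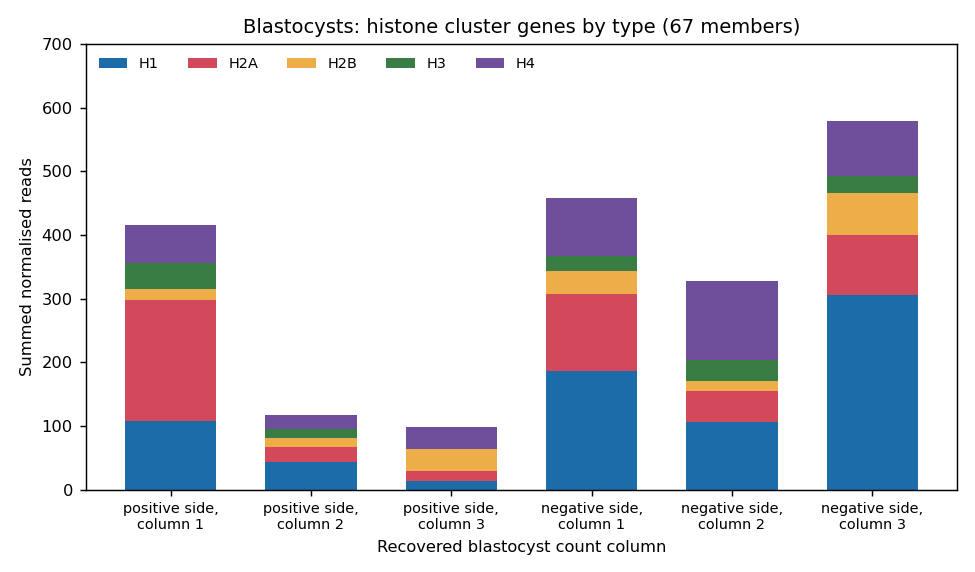
Summed normalised reads of 67 histone cluster genes in each of the 6 recovered blastocyst columns, stacked by histone type; Hist1h1c is left out because its reads could not be recovered. Columns 2 and 3 of the positive side hold 118 and 98.3, and the other 4 hold 327 to 578.

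Among related genes in blastocysts, unadjusted p-values under 0.05 were found at 6.45% for histone mRNA factors, 7.69% for replication-independent histones and 12.0% for S phase genes, against 6.21% of all tested genes. In the authors' deposited table, 0 of 13 tested replication-independent histones passed a DESeq2 adjusted p-value of 0.05 and 9 were negative; H2afx, whose mRNA can end in a stem-loop or a poly(A) tail, was at -1.39 (SE 0.40, p = 5.11e-04, DESeq2 adjusted p = 0.210). Of the 25 S phase genes 0 passed and 21 were negative, with a median of -0.36. Those with an unadjusted p-value under 0.05 were the replication clamp Pcna at -1.06 (SE 0.42), the ribonucleotide reductase subunit Rrm1 at -0.95 (SE 0.39) and the cyclin Ccne1 at -1.41 (SE 0.70). Among 31 histone mRNA factors 0 passed and 21 were negative, and the 2 with an unadjusted p-value under 0.05 were Cstf2 at -1.26 (SE 0.40), a cleavage factor subunit, and Snrpb at -0.63 (SE 0.32), a shared Sm protein; Slbp was at 0.07 (SE 0.40). Unadjusted p-values under 0.05 were found for 3 of 7 pluripotency, 3 of 6 trophectoderm and 0 of 4 primitive endoderm markers. For pluripotency the authors' deposited table gives Nanog -1.93 (SE 0.73), Tdgf1 -1.75 (SE 0.50) and Pou5f1 -1.21 (SE 0.48). Klf4 was at -0.53, Zfp42 at -0.05, Sox2 at 0.03 and Esrrb at 0.00. Those of trophectoderm were of both signs: Krt8 -0.87 (SE 0.36), Krt18 -0.63 (SE 0.29) and Gata3 0.52 (SE 0.26). Eomes was at 0.51, Tfap2c at 0.17 and Cdx2 at -0.03. No marker in these lists passed an adjusted p-value of 0.05, and the part of cell makeup in the histone values was not tested.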

How the data were processed

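RNA-seq libraries of blastocysts and ES cells were compared by genotype within each material. The submitters' processing notes name STAR 2.4.0b, bedtools, SAMtools, featureCounts, Subread 2.0.1 and DESeq2 1.34.0 with GRCm38. Each deposited table holds the mean of normalised read counts (a signal column, per the file headers), the log2 fold change and its standard error (log2, per the file headers), a Wald statistic (score, per the file headers), and a p-value and adjusted p-value, per the file headers. Neither table holds per-sample values, so 0 such columns were left unused, and the authors' own DESeq2 test with an adjusted p-value under 0.05 was used in place of a count test, as the planned design allowed for such tables. The members and lists were chosen with earlier results of these data known.

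Each mean is a sum of whole reads times a fixed step per column. The steps were solved from the lowest means, and whole reads were then found for each gene. In blastocysts 11415 of 11570 genes with a mean up to 90 had 1 solution, and in ES cells 12733 of 12733 with a mean up to 700. Columns were assigned to sides by the split whose log2 ratio correlated best with the authors' log2 fold change across genes (r = 0.995 in blastocysts, 0.751 for the next split; 0.889 and 0.604 in ES cells). On simulated reads 100% of single solutions were right for 9478 blastocyst genes, where 100% had 1. For 12304 simulated ES cell genes 88.2% had 1, against 12733 of 12733 real ones. The simulated ES cell reads thus differed from the real ones, and they do not give the error rate of the recovered ES cell columns. The recovered reads summed to between 156505 and 358315 per blastocyst column and between 850706 and 1393484 per ES cell column; these cover only genes under the stated means and are not library depths. Blastocyst size factors ran from 0.695 to 1.62. Intervals and floors cover counting error only.

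Levels per kilobase used the shorter of a gene's span in the table and its GENCODE M21 exon bases. Column ratios used a pseudocount of 0.5 normalised reads and genes with a mean of at least 20. Genes named in the text were Dis3l, members with an unadjusted p-value under 0.05, the 2 highest members per kilobase of each type and table, members with a mean of at least 10 in 1 table and 0 or not listed in the other, list genes with an unadjusted p-value under 0.05, and the testis variants; others are examples chosen with their values in view. Alternatives were another threshold, readjusted p-values, minimum means, each type alone, each column left out, other denominators, other gene models and other stem-loop rules. Python 3.11.15, numpy 2.4.6, pandas 2.3.3 and numba 0.67.0 were used.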

Additional observations from a re-analysis of the deposited data

Results flagged for a closer look

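In the blastocyst table a long non-coding RNA gene also named Hist2h2bb (chr3:96269721-96279001), which spans the protein-coding gene of that name, had a mean of 6.06 normalised reads, while the protein-coding gene stood at 0. Its reads were 14, 4 and 0 in the columns of the positive side and 0, 20 and 0 in those of the negative side, and its log2 fold change in the authors' deposited table was -0.65 (SE 2.75, DESeq2 adjusted p = 0.997). It was picked out because it lies outside the comparisons and 2 of its columns exceed the 6 reads that a count of 0 allows where counts move in steps of 2. Where in the gene these reads lie was not tested.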

How the results depend on the processing

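After readjustment over every gene with a p-value, or over genes with a mean of at least 10, 0 members were called in both tables; the stricter thresholds (adjusted p-value 0.01, absolute log2 fold change 1) could not raise a count of 0. The median log2 fold change in blastocysts, -1.71, turned to 0.37 for H3 genes alone, the cause of which was not tested; it was -1.18 over every member with a value. In ES cells the median of 0.45 became 0.74 as a ratio of recovered reads, and 0.27 to 1.30 when each column was left out (0.86 without column 1 and 0.57 without column 2 of the positive side, 1.30 without column 1 and 0.27 without column 2 of the negative side), alternatives chosen after seeing the data. Leaving out each column moved the summed log2 ratio between 0.21 and 1.35 in ES cells and between -2.07, without column 1 of the positive side, and -0.77 in blastocysts. At an unadjusted threshold of 0.01, also chosen after seeing the data, 4 ES cell members passed in place of 15. With a mean of at least 10, 9 members were detected in blastocysts in place of 49. Divided by length, the histone share became 0.0781% in blastocysts and 2.61% in ES cells. The stem-loop count stayed at 46 under both other rules. No paired analysis was possible because neither table gives a value per sample and no recovered column carries a replicate number. The number of histone reads limits the blastocyst values: members summed to a mean of 418 normalised reads there and 6470 in ES cells.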
